A study of Saccharomyces cerevisiae with 2 samples.

Results

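The spliceosome protein genes of Saccharomyces cerevisiae were examined in npl3Δ and wild type cells. The set comprised 51 of the 7127 features of the count table: the protein genes of the U1, U2, U4/U6, U5 and Sm particles, the PRP19 complex and the splicing helicases, chosen by their systematic names, with genes of chromosome I left out. For the comparison they were divided into 10 groups, in which the factors that recognise the branch point, the proteins that join the tri-snRNP and the second-step factor PRP18 stood apart. The study sequenced total RNA, without removing rRNA, from 1 wild type library and 1 library of cells that lack NPL3, each made from 200 ng of RNA of cells grown at 25 °C. Per the study's methods most of its strains derive from BY4741 and a few from S288C, and the strains that were sequenced are not named. Since each genotype had a single library, differences could not be checked against replicates and p-values were not calculated.

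The spliceosome removes introns from pre-mRNA and is built anew on each intron from small nuclear ribonucleoproteins (snRNPs), which consist of an snRNA and its proteins. U1 binds the 5′ splice site and U2 the branch point, the U4/U6.U5 tri-snRNP then joins, and helicases together with the PRP19 complex remodel the assembly into its active form and later take it apart. Npl3 is an SR-like mRNA-binding protein that is known to promote the splicing of some yeast introns. The counts per gene measure the mRNA of the spliceosome proteins, not the proteins, the assembled particles or splicing itself.

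Outside the rRNA features, 4799318 of 421789474 counts were obtained in wild type and 6674796 of 401753674 in npl3Δ. The members took up 7144 and 11110 of them. NPL3 itself had 1345 counts in wild type and 3 counts in npl3Δ. The libraries also differed in ways the genotype labels do not name. The a-cell gene STE2 had 774 and 8 counts and the α-cell gene STE3 had 6 and 1326, and the 84 genes of chromosome I tested had a median log2 ratio of 0.96. A difference between the sequenced strains and an effect of the NPL3 deletion cannot be told apart. The counts of npl3Δ were divided by 1.41, the median ratio of npl3Δ to wild type over the 6118 features that reached 10 counts over both libraries, so that a log2 ratio of 0 means a change like that of the median gene. Values are thus relative, and a change in total mRNA per cell would not be seen. The intervals given with log2 ratios below are 95% Clopper-Pearson intervals, which cover counting error only. Medians carry no interval.

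All 51 members passed the minimum of 10 counts. A member had 30 to 989 counts in wild type, with a median of 98, and 10 to 1681 in npl3Δ, with a median of 139. At this depth the interval of a member spanned 0.23 to 2.24 on the log2 scale, with a median width of 0.80. Small changes were thus not detectable except in the most counted members. Levels were compared between genes as counts per kilobase of coding length. The median member had 67.1 counts per kb in wild type, the median of 5667 protein-coding genes had 97.5, and 15 of the 51 members lay above the latter. None of them belonged to the highest 10% of genes.

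The 7 Sm genes, whose proteins form the ring around the U1, U2, U4 and U5 snRNAs, and the helicase gene PRP43 had the 8 highest levels among the members in wild type. SME1 (YOR159C, SmE) had 561 counts per kb in wild type and, after scaling, 434 in npl3Δ. SMD3 (YLR147C) had 526 and 579. At the other end, the helicase gene PRP28 (YDR243C) had 35.7 and 46.3 counts per kb. The levels of the members in wild type thus spanned a 15.7-fold range, and their order was similar in both libraries, with a rank correlation of 0.77 over the 51 genes as a description.

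**Figure D1:**
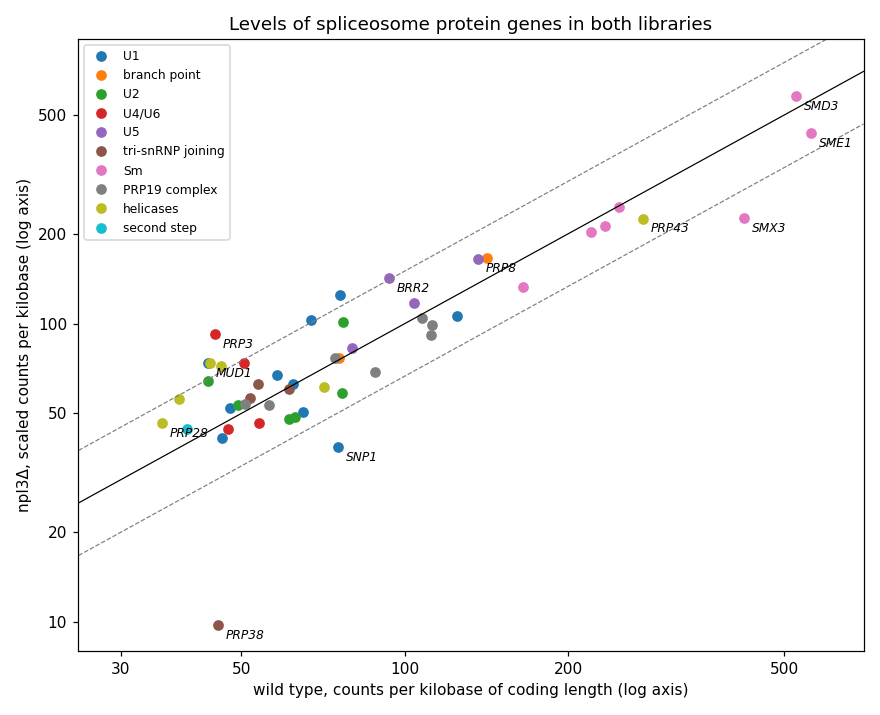
Level of the 51 members in wild type (horizontal) and npl3Δ (vertical) as counts per kilobase of coding length on log axes, with npl3Δ divided by the scaling factor. Each point is 1 gene in 1 library per genotype, coloured by particle. The solid line marks equal levels and the dashed lines a 1.5-fold difference. The Sm genes and PRP43 lie at the upper right, and PRP38 lies far below the line with 45.3 counts per kb in wild type and 9.76 in npl3Δ.

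The median member changed like the median gene. The median log2 ratio of the members was 0.02, and 27 lay above and 24 below 0. With all counts of the members summed, the log2 ratio was 0.15 (95% interval 0.10 to 0.19). This sum gives most weight to the most counted genes. The 4 U5 genes alone, with PRP8 and BRR2, held 1884 of 7144 counts in wild type and 3400 of 11110 in npl3Δ, and were at 0.36. At least 1.5-fold higher in npl3Δ were 7 members (13.7%), compared with 15.9% of all features tested, and at least 1.5-fold lower were 3 (5.88%), compared with 12.4%. The counting interval lay above 1 for 11 members (21.6%), where 21.9% of all features did so, and below 1 for 5 (9.80%), where 24.8% did so. The share of higher members was therefore near the background, and that of lower members was below it. With a minimum of 50 counts the background was 12.5% higher and 11.1% lower of 5448 features. Of the 50 members left, 7 were higher and 2 lower. The background was not matched to the members in level, and the part of level in these shares was not tested. The ratios of the members were also closer together than those of all features, with an SD of 0.51 against 0.84 on the log2 scale. All features include those with as few as 10 counts over both libraries and the genes of chromosome I. The 2 SDs are therefore not from genes of like depth. The 7 higher members were PRP3, PRP16, MUD1, PRP40, PRP5, SNU71 and BRR2, the 3 lower ones PRP38, SNP1 and SMX3, and the interval of each of these 10 lay on the same side of 1. BRR2, SNU71 and PRP5 lay within 0.1 above the threshold of 0.58 on the log2 scale, and CUS1, PRP31 and PRP22 within 0.1 below it.

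**Figure D2:**
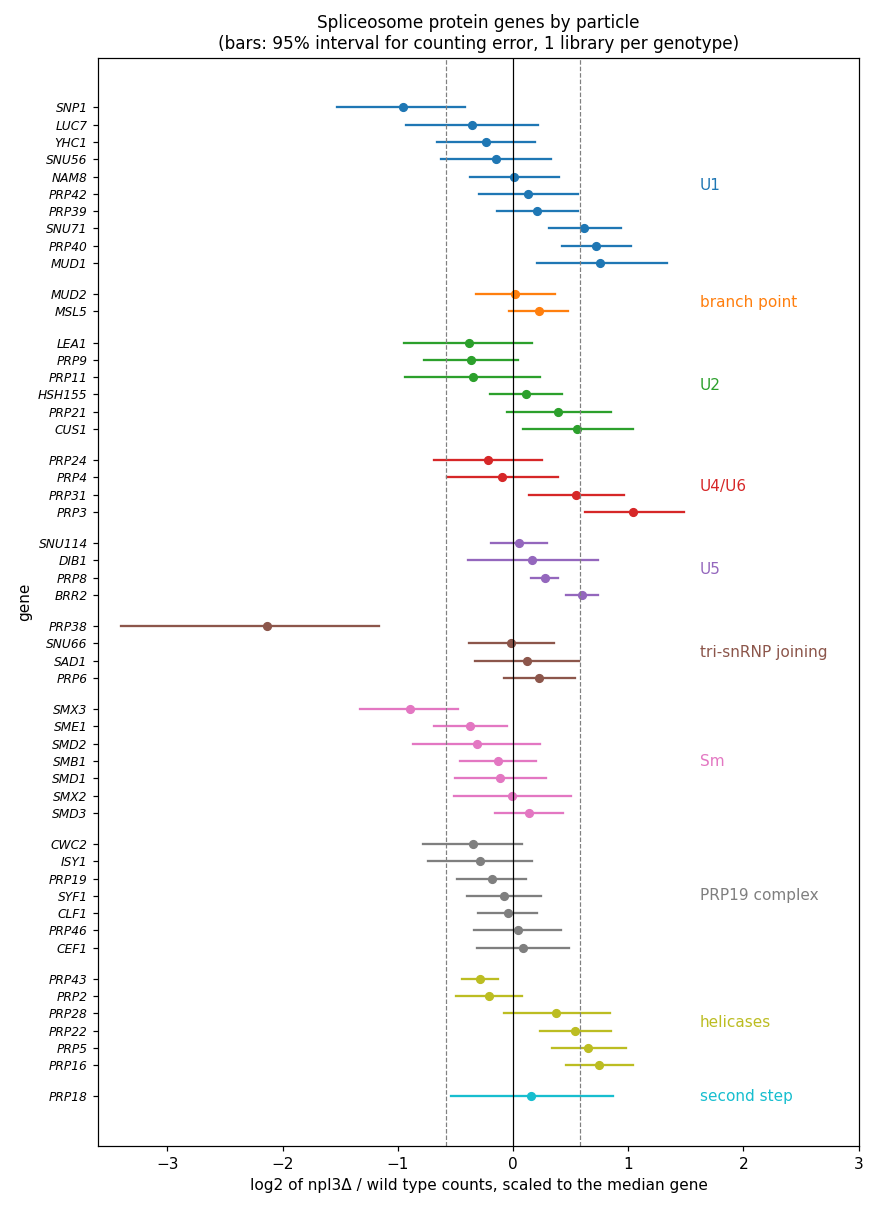
Log2 ratio of npl3Δ to wild type for each of the 51 members, grouped and coloured by particle, with 0 as the change of the median gene. Points are the ratio of 1 library per genotype, bars the 95% interval for counting error, and dashed lines the 1.5-fold threshold. The U1 genes spread from -0.95 to 0.75, the 7 genes of the PRP19 complex all have intervals that include 0, and PRP38 stands apart at -2.14.

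The U1 snRNP recognises the 5′ splice site, and its 10 genes held members of both directions. SNP1 (YIL061C), the homologue of human U1-70K, had 68 counts in wild type and 49 counts in npl3Δ, a log2 ratio of -0.95 (95% interval -1.52 to -0.41). MUD1 (YBR119W), the homologue of the human U1 protein A, had 39 and 93 counts, a log2 ratio of 0.75 (0.21 to 1.34). The genes of these core U1 proteins thus lay at opposite ends of the particle, and their intervals did not overlap. YHC1 (YLR298C), the homologue of the human U1 protein C and the remaining core protein with a counterpart in the human particle, had 87 and 104 counts and a log2 ratio of -0.23, with an interval that included 0.

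The other U1 proteins are stable subunits of the yeast particle. PRP40 (YKL012W), which bridges U1 to the branch-point factors, had 133 counts in wild type and 308 counts in npl3Δ, a log2 ratio of 0.72 (0.42 to 1.02). SNU71 (YGR013W), which binds Prp40, had 125 and 270 counts, a log2 ratio of 0.62 (0.31 to 0.94). Both were at least 1.5-fold higher. LUC7 (YDL087C), which affects the choice of 5′ splice sites, had 51 and 56 counts and a log2 ratio of -0.35 (-0.93 to 0.22). The interval of LUC7 overlapped neither that of PRP40 nor that of SNU71. The remaining genes, SNU56 (YDR240C), NAM8 (YHR086W), PRP42 (YDR235W) and PRP39 (YML046W), lay between -0.15 and 0.21, with intervals that included 0. Pooled over the 7 genes other than those of the core, the log2 ratio was 0.31 (0.17 to 0.45), and over the 3 core genes it was -0.15 (-0.43 to 0.13). Only 2 of the 7 genes, PRP40 and SNU71, had intervals above 0, and the core value pools SNP1 and MUD1, which went in opposite directions. Over all 10 U1 genes the pooled log2 ratio was 0.22, and without PRP40, the most counted of them, it was 0.11.

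MUD1 and the Sm gene SMD2 (YLR275W) were the only members with an intron, and their splice signals are shown because the products of these genes act in the reaction that their own transcripts undergo. The intron of MUD1 lies at chrII:479346-479434 and that of SMD2 at chrXII:694383-694472, both on the plus strand of the genome build sacCer3 (R64). Capitals mark the first 6 bases of the intron in the 5′ windows, and the branch-point letters and the last 3 bases of the intron in the 3′ windows.
MUD1 5′ splice site: ccatgtcagcGTATGTatataccttgtaat
SMD2 5′ splice site: ttatcatgtcGTATGTttgatcttaaccat
MUD1 branch point to 3′ splice site: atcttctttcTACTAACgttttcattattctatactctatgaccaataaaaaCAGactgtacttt
SMD2 branch point to 3′ splice site: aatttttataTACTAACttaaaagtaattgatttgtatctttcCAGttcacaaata
The introns are 89 and 90 bases long, and both carry the same letters at all marked positions. GTATGT began 73.0% of 281 annotated nuclear introns of at least 30 bases, and TACTAAC was present in 82.6%, so that neither gene had an unusual signal. From TACTAAC to the last 3 bases there were 35 bases in MUD1 and 26 in SMD2. The log2 ratios of MUD1 and SMD2 were 0.75 and -0.32. Spliced and unspliced transcripts are not separated in the counts per gene.

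The branch-point factors bind the intron before U2 does. MSL5 (YLR116W), the branch-point binding protein, had 203 counts in wild type and 333 counts in npl3Δ, a log2 ratio of 0.22 (-0.03 to 0.48). Its partner MUD2 (YKL074C), which resembles the large subunit of human U2AF, had 120 and 171 counts and a log2 ratio of 0.02. Neither difference exceeded counting error.

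The U2 snRNP pairs with the branch point through its snRNA, and its proteins SF3a and SF3b hold it there. Of its 6 genes none passed the 1.5-fold threshold. LEA1 (YPL213W), the homologue of human U2 A′, had 55 counts in wild type and 59 counts in npl3Δ, a log2 ratio of -0.39 (-0.95 to 0.17). CUS1 (YMR240C), an SF3b subunit, had 57 and 118 counts, a log2 ratio of 0.55 (0.09 to 1.04), and was the only U2 gene whose interval did not include 0. HSH155 (YMR288W), an SF3b subunit that contacts the branch-point region, had 144 and 219 counts and a log2 ratio of 0.11. The genes of SF3a did not go together: PRP9 (YDL030W) and PRP11 (YDL043C, with 49 and 54 counts) were at -0.37 and -0.35, and PRP21 (YJL203W), with 65 and 120 counts, was at 0.39. Each of these 3 intervals included 0.

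U4 and U6 are paired in the tri-snRNP and must be separated for activation. PRP3 (YDR473C), a U4/U6 protein, had 63 counts in wild type and 183 counts in npl3Δ, a log2 ratio of 1.04 (0.63 to 1.48), which was the highest of all members. PRP31 (YGR091W), which clamps the U4 snRNA, had 75 and 154 counts and a log2 ratio of 0.54 (0.14 to 0.96). PRP4 (YPR178W), which forms a complex with Prp3, had 66 and 87 counts and a log2 ratio of -0.09 (-0.57 to 0.39). The intervals of these partners, PRP3 and PRP4, did not overlap. PRP24 (YMR268C), which anneals U6 to U4, had 72 and 87 counts and a log2 ratio of -0.22. In wild type the levels of the U4/U6 genes lay within a 1.21-fold range, from 44.7 to 53.9 counts per kb, and in npl3Δ within a 2.09-fold range.

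U5 contains the largest proteins of the spliceosome. PRP8 (YHR165C), a U5 protein at the active site, had 989 counts in wild type and 1681 counts in npl3Δ, the most of all members, and a log2 ratio of 0.27 (0.16 to 0.39). BRR2 (YER172C), the helicase that unwinds U4 from U6, had 608 and 1295 counts and a log2 ratio of 0.60 (0.46 to 0.74). Both were higher beyond counting error, and the interval of BRR2 lay entirely above that of PRP8. SNU114 (YKL173W), a GTPase related to translation elongation factor EF2, had 242 and 353 counts and a log2 ratio of 0.05. DIB1 (YPR082C), a small protein that leaves the spliceosome on activation, had 45 and 71 counts and a log2 ratio of 0.16 (-0.39 to 0.74). All 4 U5 genes lay above 0.

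Of the 4 proteins that hold the tri-snRNP together or bring it to the spliceosome, PRP38 was the exception. PRP38 (YGR075C), which is needed for activation, had 33 counts in wild type and 10 counts in npl3Δ, a log2 ratio of -2.14 (-3.40 to -1.16). It was the lowest of all members, the widest in its interval, and the only one with fewer than 50 counts in both libraries together. Among the 6118 features 43 had a log2 ratio as low or lower. The gene lies on the minus strand at chrVII:636147-636875, and its end overlaps that of the Sm gene SMD1 (YGR074W) on the plus strand, which had 97 and 126 counts and a log2 ratio of -0.11. These were the only members that overlapped another annotated gene. SNU66 (YOR308C), a tri-snRNP protein, had 108 and 150 counts and a log2 ratio of -0.02. PRP6 (YBR055C), which connects U5 with U4/U6, had 145 and 239 counts and a log2 ratio of 0.23. SAD1 (YFR005C) was at 0.12, and all 3 intervals included 0. The levels of SNU66, SAD1 and PRP6 were 61.2, 52.0 and 53.7 counts per kb in wild type and 60.5, 56.5 and 63.0 in npl3Δ.

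Among the Sm genes, 6 of 7 lay below 0. SMX3 (YPR182W, SmF) had 110 counts in wild type and 83 counts in npl3Δ, a log2 ratio of -0.89 (-1.33 to -0.47). SME1 had 160 and 174 counts and a log2 ratio of -0.37 (-0.69 to -0.05). Both had intervals below 0, and their proteins are neighbours in the Sm ring. SMD2 had 55 and 62 counts and a log2 ratio of -0.32 (-0.87 to 0.23). SMB1 (YER029C), SMD1 and SMX2 (YFL017W-A, SmG) lay between -0.13 and -0.01. SMD3, with 161 and 249 counts, was the highest at 0.14 (-0.15 to 0.43). SMX2, whose protein forms a trimer with SmE and SmF, had 58 and 81 counts, so that the genes of this trimer ranged from -0.89 to -0.01.

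The PRP19 complex binds at activation and stabilises the pairing of U6 in the active site, and among the groups of more than 2 genes it had the narrowest range of log2 ratios. CWC2 (YDL209C), which contacts the U6 snRNA, had 90 counts in wild type and 99 counts in npl3Δ, a log2 ratio of -0.35 (-0.78 to 0.07). CEF1 (YMR213W), the homologue of human CDC5L, had 90 and 134 counts, a log2 ratio of 0.08 (-0.31 to 0.48). These were the lowest and the highest of the complex. PRP19 (YLL036C), the ubiquitin ligase, had 170 and 210 counts and a log2 ratio of -0.19. ISY1 (YJR050W), the HAT-repeat proteins SYF1 (YDR416W, with 145 and 193 counts) and CLF1 (YLR117C, with 222 and 302) and the WD-repeat protein PRP46 (YPL151C) lay between -0.29 and 0.04. All 7 intervals included both 0 and the pooled log2 ratio of the complex, which was -0.10 (-0.23 to 0.02). Their levels in wild type ranged from 50.8 counts per kb for CEF1 to 112 for PRP19 and ISY1.

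The 6 helicases fell on both sides of 0. PRP16 (YKR086W), which acts before the second step, had 141 counts in wild type and 333 counts in npl3Δ, a log2 ratio of 0.75 (0.46 to 1.04). PRP5 (YBR237W), which prepares U2 for binding to the branch point, had 117 and 259 counts, a log2 ratio of 0.65 (0.33 to 0.98). PRP22 (YER013W), which releases the spliced mRNA, had 132 and 270 counts, a log2 ratio of 0.54 (0.24 to 0.85). PRP28 (YDR243C), which removes U1 from the 5′ splice site, lay in the same direction with 63 and 115 counts and a log2 ratio of 0.37 (-0.08 to 0.84). On the other side, PRP2 (YNR011C), which triggers the first step, had 187 and 227 counts and a log2 ratio of -0.21 (-0.50 to 0.08). PRP43 (YGL120C), which dismantles the spliceosome after release and also works in ribosome biogenesis, had 632 and 728 counts and a log2 ratio of -0.29 (-0.44 to -0.13). PRP43 had the highest level of the helicases with 274 counts per kb in wild type, and the other 5 had at most 71.1. Because it held 49.7% of the helicase counts in wild type, the pooled log2 ratio was 0.11 (0.01 to 0.21) with PRP43 and 0.42 (0.28 to 0.56) without it. PRP18 (YGR006W), a factor of the second step, had only 30 and 47 counts and a log2 ratio of 0.15 (-0.54 to 0.87).

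For the comparison of the particles, the counts of all members of a particle were summed in each library. U4/U6 had 276 counts in wild type and 511 counts in npl3Δ, a log2 ratio of 0.40 (0.18 to 0.61). U5 had 1884 and 3400 counts, a log2 ratio of 0.36 (0.28 to 0.44), and U1 had 857 and 1404, a log2 ratio of 0.22 (0.10 to 0.34). These were, beside the helicases, the groups whose pooled interval lay above 0. The Sm genes, with 779 and 952 counts and a log2 ratio of -0.20 (-0.34 to -0.06), were the only group whose pooled interval lay below 0. The pooled log2 ratios of U2, the branch-point factors and the tri-snRNP-joining proteins were 0.04, 0.15 and 0.02, with intervals that included 0.

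Of the 45 pairs of particles, 17 had a ratio whose counting interval did not include 1. Relative to the Sm genes, the change from wild type to npl3Δ was 1.52 times as high for U4/U6 (1.27 to 1.81), 1.48 times for U5 (1.32 to 1.65) and 1.34 times for U1 (1.18 to 1.53). Relative to the PRP19 complex it was 1.41 times as high for U4/U6 (1.19 to 1.68) and 1.38 times for U5 (1.24 to 1.53). U5 also exceeded U2, with a ratio of U2 to U5 of 0.801 (0.701 to 0.914). U4/U6 and U5, which travel together in the tri-snRNP, did not differ beyond counting error, with a ratio of 1.03 (0.875 to 1.20). Both, however, exceeded the tri-snRNP-joining genes, which include PRP38, with ratios of 1.30 (1.06 to 1.60) for U4/U6 and 1.27 (1.09 to 1.47) for U5. The Sm genes and the PRP19 complex did not differ beyond counting error, with 0.933 (0.819 to 1.06). These ratios compare 2 libraries, and their intervals cover counting error, not the spread between the genes of a particle. How often other groups of genes of like size and depth would differ was not tested.

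**Figure D3:**
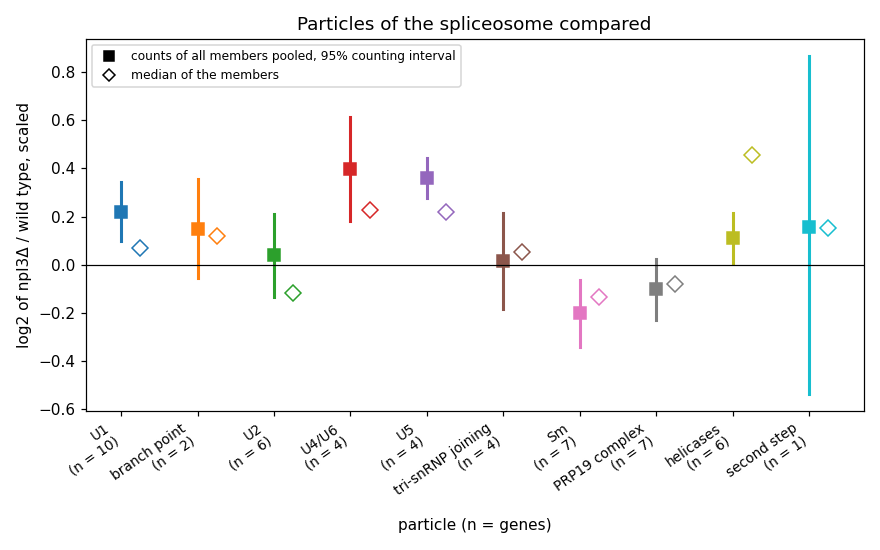
Log2 ratio of npl3Δ to wild type for the 10 groups of spliceosome genes, with 0 as the change of the median gene. Squares are the summed counts of all members with their 95% interval for counting error, open diamonds the median of the members, and n the number of genes. U4/U6 and U5 lie highest by pooled counts (0.40 and 0.36) and the Sm genes lowest (-0.20), while the median and the pooled value differ most for the helicases (0.46 and 0.11).

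Within the particles, however, the members often differed more than the particles did. The interval of a single gene missed the pooled ratio of its own particle for 5 of 10 U1 genes, 3 of 4 U4/U6 genes, 5 of 6 helicase genes, 2 each of the U2, U5 and Sm genes and 1 of the tri-snRNP-joining genes, and for none of the branch-point factors or the PRP19 complex. U4/U6 depended on PRP3: without it the pooled log2 ratio was 0.13. In U5, PRP8 held 52.5% of the counts in wild type, and without PRP8 the pooled log2 ratio rose to 0.45 (0.33 to 0.57). With BRR2 counted among the helicases instead, the pooled log2 ratio of U5 was 0.23. By the median of their members the order was different, with the helicases highest at 0.46, U4/U6 at 0.23, U5 at 0.22 and the Sm genes lowest at -0.13, next to U2 at -0.12. The place of U2 depended on the grouping: with MUD2, MSL5 and PRP5 counted among its genes, its median was 0.11.

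Coding length, which the choice of members did not use, went along with the ratio. This relation was not planned and was examined after the data had been seen. Over the 51 members the rank correlation of the log2 ratio with coding length was 0.46, as a description. Over the 5667 protein-coding genes tested it was -0.02, and over 42 other splicing genes 0.21. Of the 23 members of at least 1500 bp, 16 lay above 0, 5 were at least 1.5-fold higher and 0 were at least 1.5-fold lower, with a median of 0.11. Of the 2207 protein-coding genes of that length, 11.2% were at least 1.5-fold higher and 9.11% lower, with a median of -0.02. Of the 8 members below 600 bp, 7 of which are Sm genes, 2 lay above 0 and the median was -0.12, compared with 0.05 for all 1002 genes of that length. Without the Sm genes the rank correlation was 0.39. The log2 ratio also went along with the level in wild type, with a rank correlation of -0.42 over the members and -0.39 over all protein-coding genes. The ratio and the level share the wild type count. The part of length and level in the differences between particles was not tested.

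**Figure D4:**
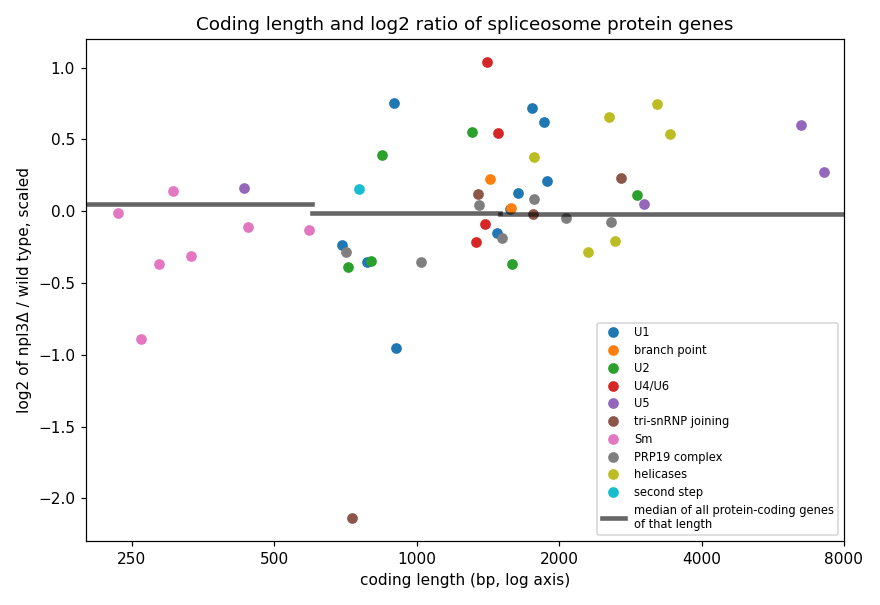
Log2 ratio of npl3Δ to wild type against coding length in base pairs (log axis) for the 51 members, coloured by particle. Horizontal grey lines give the median of all protein-coding genes below 600 bp, from 600 to below 1500 bp and from 1500 bp. The short Sm genes lie mostly below 0 and 16 of 23 genes of at least 1500 bp lie above it, whereas the grey medians stay between -0.02 and 0.05.

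The promoters of the members were searched for 3 short motifs, in the 250 bases before each coding start and on both strands. TTACCCG, the letters bound by the general regulatory factor Reb1, occurred in 8 of 51 members (15.7%) and in 7.03% of all 6001 such windows. TATAAA, the core of a TATA box, occurred in 14 members (27.5%) and in 43.4% of all windows, and GCGATGAG, the PAC motif of ribosome biogenesis genes, in 0 members and 3.83% of all windows. The genes with the Reb1 letters were CWC2, LUC7, PRP2, PRP22, PRP5, SMD2, SMX3 and YHC1. They are shown for the 2 members with the highest and the 2 with the lowest log2 ratio among these 8, with 30 bases on either side, on the strand of the gene and with the motif or its reverse complement CGGGTAA in capitals. The windows lie at chrII:691796-691862 (plus strand) for PRP5, chrV:178651-178717 (plus) for PRP22, chrIV:301074-301140 (minus) for LUC7 and chrXVI:900004-900070 (plus) for SMX3 in the RefSeq sequence of build R64.
PRP5: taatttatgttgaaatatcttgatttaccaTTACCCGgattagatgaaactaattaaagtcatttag
PRP22: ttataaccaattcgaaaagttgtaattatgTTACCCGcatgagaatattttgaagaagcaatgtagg
LUC7: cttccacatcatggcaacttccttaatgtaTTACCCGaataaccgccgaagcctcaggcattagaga
SMX3: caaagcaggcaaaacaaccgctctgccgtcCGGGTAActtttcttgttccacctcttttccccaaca
The log2 ratios of these 4 genes were 0.65, 0.54, -0.35 and -0.89. Of the 8 members with the motif 6 lay below 0, with a median of -0.27, and the 415 tested genes with it had a median of 0.02. A match of letters is a description and no measured binding site.

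The snRNAs of the particles were listed by name in the same table, and the counting interval of none of them overlapped that of the pooled protein genes of its particle. U1 snRNA (snR19) had 11254 counts in wild type and 16166 counts in npl3Δ, a log2 ratio of 0.03 (-0.00 to 0.07). U2 snRNA (LSR1) had 24695 and 42875 counts, a log2 ratio of 0.30 (0.28 to 0.33), where the U2 protein genes were at 0.04. For U4 snRNA (snR14), 151 and 166 counts gave -0.35 (-0.68 to -0.03), and for U6 snRNA (snR6), 401 and 215 counts gave -1.39 (-1.64 to -1.15), whereas the U4/U6 protein genes were at 0.40. U5 snRNA (snR7), whose long and short forms carried identical counts of 6083 and 7675, was at -0.16 (-0.20 to -0.11). Recovery of short RNAs in the libraries was not tested.

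Another 42 genes of splicing, not among the members, were counted in the same way. At least 1.5-fold higher in npl3Δ were 9 of 42 (21.4%) and at least 1.5-fold lower were 2 (4.76%), with a median log2 ratio of 0.17. Over all features these shares were 15.9% and 12.4%. By the counting interval 9 (21.4%) lay above 1, close to the 21.9% of all features, and 5 (11.9%) below 1, where 24.8% of all features did. The first-step factors CWC25 (YNL245C), with 28 counts in wild type and 77 counts in npl3Δ, and YJU2 (YKL095W), with 33 and 91, were both at 0.96 on the log2 scale. They act right after the helicase PRP2, which was at -0.21. In the tri-snRNP, SPP381 (YBR152W), a partner of Prp38, had 33 and 115 counts and a log2 ratio of 1.30 (0.74 to 1.91), opposite to PRP38 itself. Among the U2 proteins, MSL1 (YIR009W), the partner of Lea1 in binding the U2 snRNA, had 13 and 55 counts and a log2 ratio of 1.55 (0.70 to 2.59), and the SF3b subunits RDS3 (YPR094W) and HSH49 (YOR319W) were at 0.82 and 0.67. RSE1 (YML049C), the most counted of the SF3b genes listed and named here after its values were seen, lay on the other side with 385 and 445 counts and a log2 ratio of -0.28 (-0.48 to -0.08). The intervals of MSL1 and LEA1 did not overlap.

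The other higher genes were SYF2 (YGR129W) of the PRP19 complex at 0.88, LIN1 (YHR156C), a U5-associated protein, at 0.81 and SLU7 (YDR088C) of the second step at 0.59. LIN1 had 14 and 35 counts, and its interval (-0.10 to 1.84) included 0. The lower genes were CWC21 (YDR482C), which binds Prp8 in the activated spliceosome, with 82 and 57 counts and a log2 ratio of -1.01 (-1.53 to -0.51), and NTC20 (YBR188C) of the PRP19 complex, with 49 and 40 counts and a log2 ratio of -0.77 (-1.42 to -0.15). The 7 genes of the Lsm ring, which binds the end of U6 as the Sm ring binds the other snRNAs, had a median of -0.17, and none of them passed the threshold. The Sm and the Lsm genes thus had medians of the same sign, -0.13 and -0.17, but the Lsm genes lay on both sides of 0. LSM5, LSM8, LSM2 and LSM3 were at -0.46, -0.30, -0.22 and -0.17, and LSM6, LSM7 and LSM4 at 0.06, 0.18 and 0.23. Only the interval of LSM5 did not include 0.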

How the data were processed

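Total RNA of wild type and npl3Δ cells was sequenced by the authors from stranded libraries made without rRNA depletion, 1 per genotype. Hisat2 was used by the authors for mapping to sacCer3 and featureCounts for counting. The deposited values are raw counts per feature, in whole numbers. The versions, the annotation and how multi-mapping reads were handled are not given in the sources used here. The deposited coverage of the 35S rRNA was not used.

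Gene positions, coding lengths, introns and upstream sequences were taken from RefSeq for the same build, R64, in which all 51 members were found by locus tag. Log2 ratios used a pseudocount of 0.5 and the median ratio of the 6118 features with at least 10 counts in both libraries together, because ATG26 alone held 23.5% (wild type) and 34.5% (npl3Δ) of all counts outside the rRNA. A gene was called higher or lower at 1.5-fold. Intervals of genes and of pooled counts are 95% exact conditional binomial (Clopper-Pearson), and those of pairs of particles are 95% conditional intervals of an odds ratio. They cover counting error only, since no molecular identifiers are described and reads need not stem from separate molecules. No test was made, because each genotype had 1 library. Levels are counts per kilobase of coding length.

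The members, particles and the 42 other splicing genes were chosen with earlier results of these data known. All members are described. Counts in both libraries are given for those past 1.5-fold, those highest or lowest in ratio or level in their particle and those below 50 counts, and for further members chosen after their values were seen. Other splicing genes are named where they passed 1.5-fold, and RSE1 and the Lsm genes were named after their values were seen. Alternatives concerned scaling, pseudocount, minimum count, fold, grouping and the most counted gene. The calculations were tested on simulated data and were run in Python 3.11.15 with pandas 2.3.3, scipy 1.17.1 and numpy 2.4.6, and plots were drawn with matplotlib 3.10.9.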

Additional observations from a re-analysis of the deposited data

How the results depend on the processing

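Of 197 values under other settings, 178 stayed within 1.5 times the reported count or, for log2 ratios, within their counting interval (for medians, the median bounds of the members' intervals), or kept the sign of a rank correlation. The bounds for medians are wide, and many of the values could hardly move under another scaling. The 178 is therefore no measure of robustness. The sign of 3 small log2 ratios changed: the median of the 51 members became -0.0087 with a minimum of 1 count, the median of U2 rose from -0.12 to 0.11 with the other grouping described below, and the pooled ratio of the tri-snRNP-joining genes fell from 0.02 to -0.15 without PRP6. The number of members at least 1.5-fold higher was 12 when libraries were scaled by the sum of counts other than rRNA without ATG26 and BDF1, 22 without scaling, 1 at a fold of 2 and 11 by the counting interval. The number at least 1.5-fold lower was 1 without scaling, 1 at a fold of 2 and 5 by the counting interval. For the 42 other splicing genes, 16, 22 and 2 were higher under the first 3 of these settings and 1, 0 and 1 lower, and 5 were lower by the counting interval. The shares over all features moved too, to 7.85% higher and 4.41% lower at a fold of 2, to 26.5% higher and 6.73% lower with the sum without ATG26 and BDF1 and to 42.4% and 3.74% without scaling. These scalings move the median of all features by 0.26 and 0.49 on the log2 scale. Medians and pooled ratios are given relative to that median, so a change of scaling leaves them nearly fixed and does not test them.

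With MUD2, MSL5 and PRP5 placed in U2, BRR2 among the helicases and PRP24 apart, the pooled log2 ratio was 0.23 for U5, 0.26 for the helicases, 0.17 for U2 and 0.56 for U4/U6, and the medians of U2 and U4/U6 were 0.11 and 0.54. Without the most counted gene of the particle it was 0.11 for U1, 0.13 for U4/U6, 0.45 for U5 and 0.42 for the helicases. The rank correlation with coding length was 0.39 without the Sm genes and 0.44 without the U5 and helicase genes. The relation with length and both of these alternatives were chosen after the data had been seen. No paired analysis was possible because each genotype had 1 library, and for the same reason no library could be left out. The low counts of single members limit what could be seen, as the median interval width of 0.80 shows.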
